A study of Drosophila melanogaster with 14 samples.

Results

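Testes of Drosophila melanogaster hold 231 genes, of 16078 that could be compared, that were almost silent in bam mutant testes and reached a high transcript level in wild type and in each of 3 meiotic arrest mutants, comr, can and mip40. They were chosen by level alone: the mean of the 2 libraries was under 1 FPKM in bam and at least 50 FPKM in wild type (wt), comr, can and mip40, and symbols that start with CR or snoRNA (9 genes) were left out. FPKM is a fragment number corrected for transcript length and sequencing depth. The levels in these 5 genotypes are therefore the choice itself and are given as a description. Nothing is read from the counts of limma calls printed for pairs that include one of them. Levels in CG9879 mutant testes and in mip40/bam double mutant testes took no part in the choice.

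In the testis, spermatogonia divide a fixed number of times, become spermatocytes and switch on a large set of genes for meiosis and for building sperm. Much of this switch depends on tMAC, a chromatin complex of the testis with Comr as a testis subunit and Mip40 as a subunit shared with a complex of other tissues, and on tTAFs, testis forms of the TBP-associated factors of the basal transcription machinery, such as Can. Mutants of either kind stop as spermatocytes before the meiotic divisions and lack spermatids. Bam ends the spermatogonial divisions, and bam mutant testes accumulate dividing spermatogonia and lack spermatocytes. The question put to these genes was how far transcripts of the spermatocyte programme are present when tMAC or a tTAF is defective.

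The groups were wt testes and testes mutant for bam, comr, can, mip40, CG9879 (known here only by its annotation number), or both mip40 and bam. Each group had 2 libraries, described in the series design as biological replicates, and each library was made from 50 testes dissected from 3-day-old males kept at 23°C. The sources used here give no alleles, strains or genetic background, and a group may stand for 1 stock. Polyadenylated RNA of whole testes was sequenced, and in such bulk samples fewer cells of a type and less RNA per cell cannot be told apart.

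The tables implied 3120000 to 7690000 fragments per library, and replicates correlated with r of 0.94 to 0.985 across genes. The deposited intervals around a gene's FPKM reached a median of 7.17% to 8.27% of the value to either side for the 231 genes in wt, comr, can and mip40. Of the mutated genes, CG9879 had 0.756 and 1.3 FPKM in its own mutant against 64.0 and 53.4 in wt. The others stood less far apart from wt in their own mutants: comr had 19.2 and 17.8 FPKM in comr testes against 6.45 and 8.48 in wt, can 52.6 and 50.1 against 15.7 and 15.4, mip40 20.8 and 20.2 against 22.8 and 20.9, and bam 2.91 and 0 against 3.14 and 2.81. Set beside genotypes of the same stage, mip40 was at 105 and 99.6 FPKM in comr and 136 and 125 in can, above its mip40 libraries. It was at 59.1 and 60.4 in bam against 25.8 and 27.4 in mip40/bam. The comr gene was at 26.7 and 27.4 in can and 23.3 and 21.7 in mip40, above its comr libraries. The can gene was at 132 and 143 in comr, but at 58.5 and 47.6 in mip40, which overlaps its can libraries. The summed FPKM of 45 spermatid differentiation genes was 61900 to 63660 in wt, 66020 to 69310 in CG9879, 9646 to 18090 in the 3 arrest mutants and 49.62 to 77.53 in bam and mip40/bam. That of 17 spermatogonial genes was 2157 to 2321 in bam and 1461 to 1544 in mip40/bam, against 374.7 to 573.1 in the arrest mutants and 212.3 to 246.1 in wt and CG9879. That of 13 somatic hub and cyst cell genes was 157.3 to 223.6 in the arrest mutants and 86.83 to 102.9 in wt and CG9879, and its part in the levels below was not tested. Accessory gland transcripts made up 6.67% of the summed FPKM in comr replicate 2, 2.01% in CG9879 replicate 2, 1.33% in can replicate 1 and 1.07% in wt replicate 1, and at most 0.109% elsewhere. Without these 4 libraries the choice gave 230 genes, 228 of them the same.

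Of 1203 genes under 1 FPKM in bam and at 50 FPKM or more in wt, the 231 were 19.2%. The other 972 fell short in at least 1 arrest mutant, and 439 of them were under 50 FPKM in all 3. Taken alone, can kept 719 of the 1203 (59.8%) at 50 FPKM or more, mip40 508 (42.2%) and comr 257 (21.4%). Through comr alone 236 genes failed the choice, through can alone 15 and through mip40 alone 7. Just inside the limits stood CG17377 with 0.967 FPKM in bam, CG45413 with 50.6 in wt, CG17300 with 50.5 in comr, CG15434 (ND-B8) with 51.6 in can and Ubc84D with 50.4 in mip40. Just outside stood CG31861 with 1.0 in bam, CG15227 with 49.9 in wt, mil with 50.0 in comr, CG14839 with 49.7 in can and CG10749 with 47.2 in mip40 (the values for CG31861 and mil are rounded). S-Lap1 (0.836 FPKM in bam) and its relative S-Lap4 (1.02) were parted by the bam limit.

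The set is made almost wholly of protein-coding genes. Of 226 matched to the BDGP6.54 annotation, 225 were protein coding and 1 was snRNA:U6atac:29B, a small nuclear RNA of the minor spliceosome. In the files 179 have no more than an annotation number as symbol, and 57 genes with a named product of known kind were grouped by function. These were 19 genes of the sperm tail and spermatid structure, 5 chromatin proteins and 4 of the comet genes, whose transcripts gather at the ends of spermatid tails. The others were 3 genes of translation, 3 of the proteasome and ubiquitin system, 11 mitochondrial proteins, 6 kinase and phosphatase subunits and 6 membrane proteins.

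Levels were spread over 2 orders of magnitude. The lowest, median and highest means over the 231 genes were 50.6, 239 and 7648 FPKM in wt, 50.5, 133 and 2008 in comr, 51.6, 167 and 1049 in can, and 50.4, 164 and 3175 in mip40. The genes took 15.6% and 16.1% of all summed FPKM in the 2 wt libraries, 8.79% and 9.44% in mip40, 7.2% and 6.46% in comr and 6.26% and 6.15% in can. In bam the share was 0.00721% and 0.00246%. The map of all libraries shows the same order, with wt and CG9879 alike, the arrest mutants lower and more even, and bam and mip40/bam dark apart from a few rows.

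**Figure D1:**
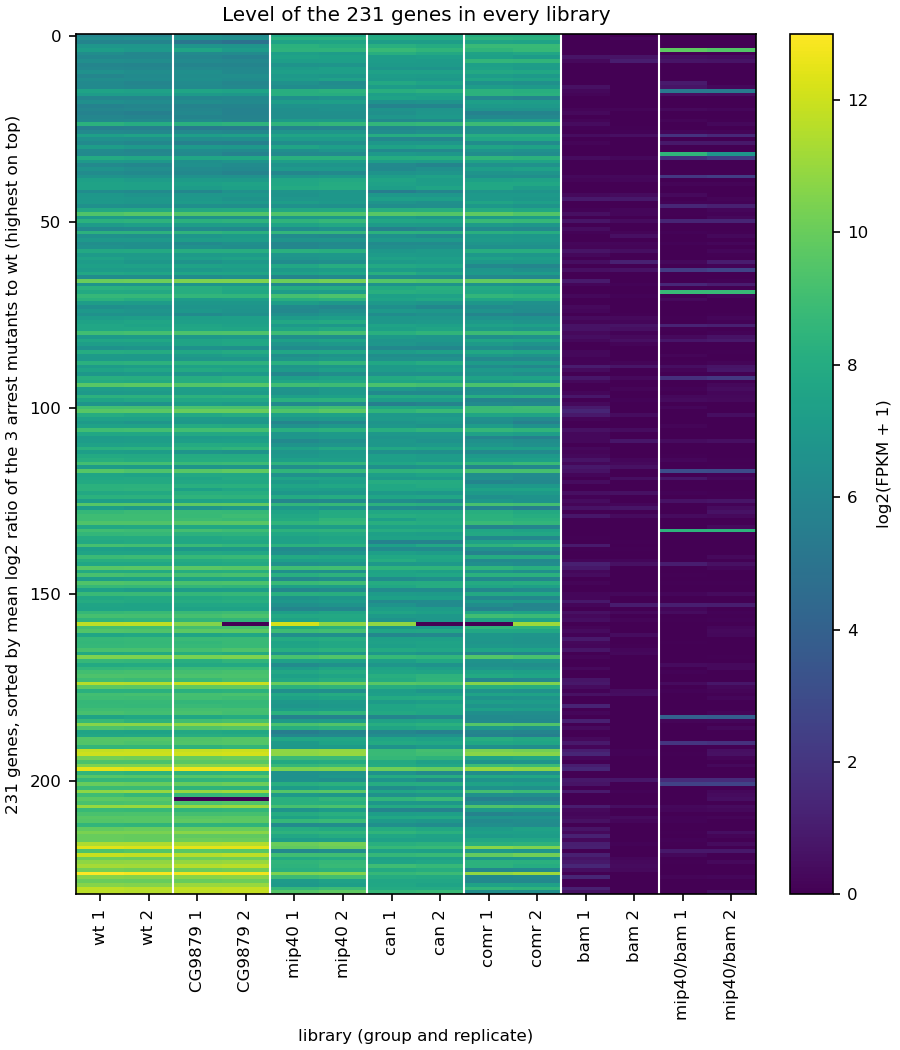
Level of each of the 231 genes (rows, sorted by their mean ratio of the 3 arrest mutants to wt, highest on top) in each of the 14 libraries (columns), as log2(FPKM + 1) on a colour scale from 0 to 13. The columns of wt, CG9879, mip40, can and comr are bright throughout except for CG13245 in CG9879 and snRNA:U6atac:29B in single libraries, while bam is near 0 and mip40/bam is bright in 6 rows at 10 FPKM or more.

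The working name of the set, spermatocyte genes that stay on without tMAC or tTAF, holds only in the sense of the 50 FPKM limit. Most of the genes had less transcript in the arrest mutants than in wt. The median log2 ratio to wt, taken on mean FPKM + 1, was -0.81 in comr, -0.69 in can and -0.64 in mip40. All 3 mutants lay below wt for 156 genes and above wt for 35, and 40 were mixed. More than 2-fold below wt in all 3 were 62 genes, within 2-fold in all 3 were 85, and at least 2-fold above in all 3 were 7.

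These directions depend on how libraries are scaled. FPKM is relative to all fragments of a library. The 45 spermatid differentiation genes made up 7.63% and 7.79% of summed FPKM in wt, against 1.31% to 2.79% in the arrest mutants. Their part in the dependence on scaling was not tested. Scaling by the median of ratios, taken over genes detected in every library, moved the log2 ratios of comr, can and mip40 by -1.24, -1.18 and -1.11. Genes not detected in a bam or mip40/bam library thus took no part in setting this scale. Their medians became -2.04, -1.86 and -1.74, with 217 genes below wt in all 3 mutants and 6 above. Quantile normalization gave 134 below and 34 above, and equal summed FPKM gave 133 and 46. Under all 4 scalings 124 genes stayed below wt in all 3 mutants and 6 stayed above.

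The other 972 genes low in bam and high in wt had median log2 ratios of -6.3 in comr, -1.65 in can and -3.0 in mip40. Being under 50 FPKM in at least 1 mutant forces a level below wt there but does not set its size. Over all 12971 genes tested the medians were 0.61, 0.64 and 0.47 as FPKM and -0.21, -0.18 and -0.25 with median-of-ratios scaling. Over the 2701 genes at 50 FPKM or more in wt they were -1.14, -0.54 and -0.74 as FPKM. In limma fits of log2(FPKM + 1), 39 of the 231 were called higher and 154 lower in comr than in wt, 34 and 154 in can, and 44 and 148 in mip40 (Benjamini-Hochberg adjusted p under 0.05). With median-of-ratios scaling the counts were 6 and 212 in comr, 4 and 214 in can, and 5 and 215 in mip40. Over all genes tested, 48.5% were called higher and 27.9% lower in comr, 51.0% and 20.4% in can, and 47.8% and 25.4% in mip40. Because the 50 FPKM limit was set on these same groups, nothing is read from these counts.

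**Figure D2:**
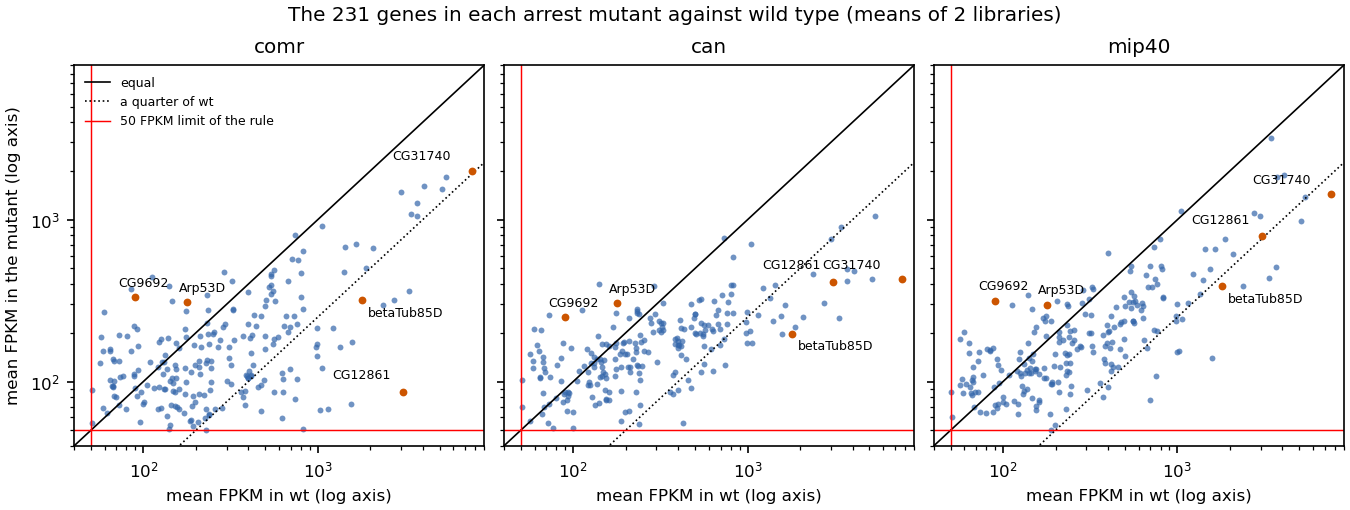
Mean FPKM of the 231 genes in comr, can and mip40 (vertical, log axis, mean of 2 libraries) against mean FPKM in wt (horizontal, log axis). Points lie on both sides of the line of equality at low wt level and below it at high wt level, and the red lines mark the 50 FPKM limits, so the empty lower and left margins come from the choice.

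The wt level and the ratio to wt went together. Of 39 genes at 50 to 100 FPKM in wt, 24 were above wt in all 3 mutants, with median log2 ratios of 0.58, 0.64 and 0.54 in comr, can and mip40. Of the 26 at 1000 FPKM or more, none was above wt in all 3, with medians of -1.92, -2.6 and -1.82. The 50 FPKM limit forces part of this, since a gene just above the limit in wt cannot be far below wt and stay in the set. No limit holds from above. The highest mean among the genes of the set was 1049 FPKM in can, that of Mst84Dc, against 7648 in wt, that of CG31740.

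Genes of the sperm tail and spermatid structure had the highest median level in wt of the 8 groups, 1800 FPKM, and in can the lowest median ratio to wt under all 4 scalings. Of 19 such genes, 17 were below wt in all 3 arrest mutants as FPKM and with equal summed FPKM, 15 with quantile normalization and all 19 with median-of-ratios scaling. Their median log2 ratios as FPKM were -1.64 in comr, -2.46 in can and -1.32 in mip40. betaTub85D (3R:9408383-9410282 in the coordinates of the files), the testis beta-tubulin of meiotic spindles and sperm tails, had 1749 and 1845 FPKM in wt and 1911 and 2035 in CG9879. It had 329.6 and 306 in comr, 188 and 206 in can and 367 and 409 in mip40, and at most 0.795 in bam and mip40/bam. All 6 arrest libraries lay below all 4 libraries of wt and CG9879 and above both bam libraries.

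The S-Lap genes encode leucyl aminopeptidase-like proteins that are abundant in sperm, and 5 of them with the related loopin-1 were in the set. S-Lap1 (3L:8617235-8619474) had 4064 and 4111 FPKM in wt, 4201 and 4506 in CG9879, 1633 and 1590.1 in comr, 445 and 512 in can and 1791 and 1981 in mip40. In the plot of single genes its can libraries lie far below those of comr and mip40, and the same was true of S-Lap2, S-Lap3, S-Lap8 and loopin-1. S-Lap7 differed, with 301 and 335 FPKM in comr, close to 290.1 and 324 in can, against 1032 and 1183 in mip40 and 2702 and 2783 in wt. S-Lap1 and S-Lap2 are neighbours on chromosome arm 3L.

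Mst84Da, Mst84Dc and Mst84Dd, closely related neighbours for small cysteine-rich sperm tail proteins, were among the 8 highest genes of the set in wt, and reads may be split uncertainly between them. Mst84Dc had 5620.1 and 5213 FPKM in wt, 1951 and 1698 in comr, 1123 and 976 in can and 1326 and 1422 in mip40. Mst84Dd had 3492 and 3230.5 in wt, 373 and 348 in comr, 246 and 248 in can and 403 and 474 in mip40. Mst84Dd was thus more than 4-fold below wt in all 3 mutants, and Mst84Dc was so only in can.

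Mst98Ca and Mst98Cb, a second pair of neighbouring tail protein genes, parted in comr. Mst98Ca had 1328 and 1353 FPKM in wt, 168 and 159 in comr, 357 and 304 in can and 337 and 358 in mip40. Mst98Cb had 752 and 786 in wt, 603 and 525 in comr, 327 and 295 in can and 376 and 425 in mip40. The log2 ratio of comr to wt was -3.03 for Mst98Ca and -0.45 for Mst98Cb, while can and mip40 gave -2.02 and -1.94 against -1.3 and -0.94. A like gap parted ocn and janB, neighbours of the janus family. ocn was at -1.0, -1.99 and -1.51 in comr, can and mip40, and janB at -3.16, -2.98 and -3.48. janB shares an exon with janA, which had 239 FPKM in bam and 237 in wt, so the janB values are uncertain.

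The remaining structural genes covered both directions. Cdlc2, a cytoplasmic dynein light chain, had 793 and 819 FPKM in wt, 364 and 298 in comr, 348 and 345 in can and 510.5 and 530.1 in mip40. TTLL3B, a tubulin glycylase, and CG13477 (gdrd), a small protein needed for sperm, were lower still, at -2.13 and -2.86 in comr, -1.74 and -2.43 in can and -1.55 and -1.1 in mip40. Only tilB and Arp53D were above wt in all 3 mutants as FPKM, and both were below wt in all 3 with median-of-ratios scaling. tilB acts in the assembly of dynein arms in cilia and flagella, and Arp53D is a testis actin-related protein. tilB shares an exon with wap, which had 109 FPKM in bam, so the tilB values are uncertain.

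Arp53D (2R:16774246-16775676) had the closest log2 ratios in the 3 mutants of all 231 genes as FPKM. It had 183 and 173 FPKM in wt, 196 and 185 in CG9879, 329 and 287 in comr, 286 and 326 in can and 285 and 312 in mip40. Its log2 ratios to wt were 0.79, 0.78 and 0.74. It was also the only gene of the set that shares no exon with another gene and yet reached 10 FPKM in mip40/bam, with 37.7 and 39.6 there against 0.207 and 0 in bam. CG6569, CG12362 and CG9314 (CatB, a catalase paralog) were next on the same scale, each below wt by a near equal step in the 3 mutants. Other scalings were not ranked in this way.

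**Figure D3:**
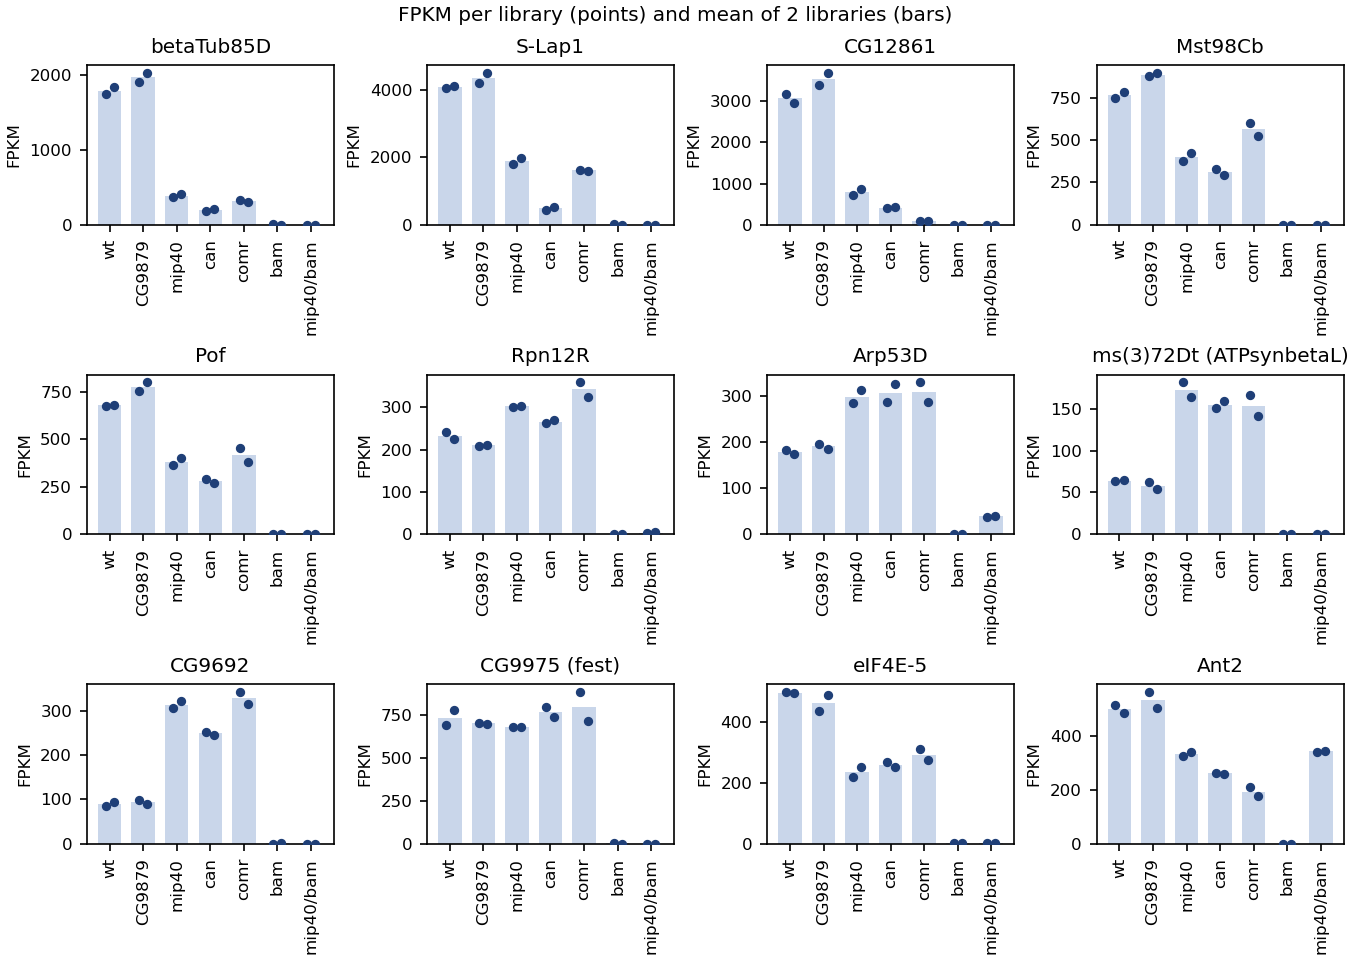
FPKM of 12 of the genes in each library (points, 2 per genotype) with the mean of the 2 libraries (bars from 0). betaTub85D, S-Lap1, CG12861 and Pof are highest in wt and CG9879, Arp53D, ms(3)72Dt and CG9692 are highest in the 3 arrest mutants on the FPKM scale (Arp53D is below wt there with median-of-ratios scaling), CG9975 is level in these 5 genotypes on the same scale, and Ant2 differs between bam and mip40/bam.

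Chromatin proteins of spermatids and spermatocytes were lower in every arrest mutant. All 5 were below wt in all 3 mutants under 3 of the 4 scalings, and all but CG7046 were so with quantile normalization. CG15510 (Prtl99C), a protamine-like protein of sperm chromatin, had 236 and 247 FPKM in wt. It had 91.0 and 85.4 in comr, 107 and 98.2 in can and 76.2 and 91.8 in mip40. Its exons overlap CG42592 on the opposite strand, which had 76.1 FPKM in wt and 0 in comr, so the CG15510 values are uncertain. CG7045 and CG7046 (tHMG1 and tHMG2), HMG-box proteins of the changing spermatid nucleus that lie side by side, had mean levels of 673 and 716 in wt. CG7045 had log2 ratios of -1.72, -1.56 and -2.06 in comr, can and mip40, and CG7046 had -0.32, -1.07 and -0.9.

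Pof, which coats chromosome 4 in somatic cells, had 676 and 683 FPKM in wt, 454 and 381 in comr, 288 and 268 in can and 365 and 399 in mip40. Its exons overlap Mmp1 on the opposite strand, which had 110 FPKM in bam, where Pof was listed at 0. Dpy-30L2, a relative of a subunit of histone methyltransferase complexes, had 634 and 638 in wt, 102 and 104 in comr, 238 and 173 in can and 239 and 254 in mip40. As listed, comr testes held least Dpy-30L2 and most Pof among the 3 mutants. Dpy-30L2 also shares an exon with a gene on the opposite strand, CG1136, so the values of both genes are uncertain.

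The comet genes hale, schuy, soti and whip, best known for transcripts made after meiosis, were present in all 3 arrest mutants. All 4 were below wt in all 3 mutants under each of the 4 scalings. soti, an inhibitor of a cullin ubiquitin ligase in spermatids, had 559.7 and 526 FPKM in wt, 362 and 334 in comr, 118 and 111 in can and 254 and 314 in mip40. Its can libraries were the lowest, as they were for schuy, which had 432 and 422 in wt, 135 and 116 in comr, 56.5 and 54.0 in can and 107 and 139 in mip40. whip went the other way, with 108 and 90.3 in comr, 184 and 166 in can and 95.0 and 93.1 in mip40 against 246 and 242 in wt.

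Genes of translation were closer to wt as FPKM, though all 3 were below wt in all 3 mutants with median-of-ratios scaling. CG9975 (fest), a regulator of cyclin B translation in spermatocytes, had 694 and 780.0 FPKM in wt and 707 and 701 in CG9879. It had 888 and 716 in comr, 800.3 and 742 in can and 679.9 and 682 in mip40. The libraries of comr and can overlapped those of wt and both mip40 libraries lay just below, but all 3 mutants were below wt with median-of-ratios scaling (-1.12, -1.12 and -1.22), and all 3 were above it with quantile normalization and with equal summed FPKM. eIF4E-5, a testis form of the cap-binding protein, had 499.6 and 494 in wt, 311 and 275 in comr, 269 and 251 in can and 219.6 and 253 in mip40. eIF4E-7, another such form, had 144 and 153 in wt, 96.9 and 99.0 in comr, 115 and 114 in can and 142 and 155 in mip40, and its mip40 libraries overlapped those of wt.

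The testis proteasome, a set of paralogs that replaces core subunits in male germ cells, had 14 members measured. Of these, 9 were under 1 FPKM in bam and at 50 or more in wt, and 2 of the 9 were in the set, against 19.2% of all 1203 such genes. Rpn12R, a regulatory particle paralog, had 242 and 225 FPKM in wt, 359 and 325 in comr, 262 and 271 in can and 302 and 304 in mip40. Its 6 arrest libraries were all above both wt libraries as FPKM, and below wt with median-of-ratios scaling. Prosbeta2R1, a core paralog, had 78.6 and 81.1 in wt, 68.0 and 66.4 in comr, 79.2 and 78.1 in can and 59.3 and 67.7 in mip40. Ubc84D, a ubiquitin-conjugating enzyme, was lower in all 3, at -1.69, -1.7 and -1.88.

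Mitochondrial proteins went in both directions as FPKM. Of 11, 4 were above wt and 4 below it in all 3 mutants, while 10 were below with median-of-ratios scaling. ms(3)72Dt (ATPsynbetaL, 3L:16097834-16100088), a testis form of the ATP synthase beta subunit, had 63.5 and 64.4 FPKM in wt, 61.8 and 54.2 in CG9879, 166 and 142 in comr, 151 and 159 in can and 182 and 164 in mip40. It was above wt in all 3 mutants under each of the 4 scalings, though by only 0.03, 0.09 and 0.32 on the log2 scale with median-of-ratios scaling. CG7211 (ATPsynGL), a paralog of subunit g of the same enzyme, had 313 and 265 in wt, 464 and 486 in comr, 377 and 399.9 in can and 352 and 383 in mip40, above wt as FPKM and below it with median-of-ratios scaling.

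Of the other mitochondrial genes, Tim13, Tim17b2 and CG7311 were among those below wt in all 3 mutants as FPKM. Tim13, a small chaperone of protein import, had 501 and 410.0 FPKM in wt, 95.6 and 88.9 in comr, 94.4 and 109.7 in can and 129 and 119 in mip40. Tim17b2, a paralog of an inner membrane translocase subunit, had 246 and 239 in wt, 119.8 and 121 in comr, 196 and 189.5 in can and 201 and 207 in mip40, and was not below wt in all 3 with quantile normalization or equal summed FPKM. CG7311 (Gpo3), a glycerophosphate oxidase paralog, was at -1.79, -1.26 and -0.97 in comr, can and mip40. CG7349 (SdhBL), a succinate dehydrogenase paralog on the X chromosome, was above wt in comr (0.37) and mip40 (0.23) and below it in can (-0.58).

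Kinase and phosphatase subunits were near wt as FPKM, and all 6 were below wt in all 3 mutants with median-of-ratios scaling. Ppm1, a PP2C-type phosphatase, had 328 and 326 FPKM in wt, 290.0 and 267 in comr, 311 and 302 in can and 372 and 375 in mip40. I-t, an inhibitor of protein phosphatase 1, had 237 and 238 in wt, 59.2 and 66.7 in comr, 260.1 and 259 in can and 135 and 161 in mip40. I-t was thus just above wt in can, and in comr its log2 ratio was -1.9. CkIIbeta2 and Ssl, regulatory subunits of casein kinase II, were at 0.64 and 0.33 in comr, 0.6 and -0.08 in can and 0.12 and 0.05 in mip40. Erk7, an atypical MAP kinase, was below wt in comr (-0.7) and can (-0.61) and above it in mip40 (0.32).

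Membrane proteins were the group with the highest median ratios as FPKM. As FPKM 4 of 6 were above wt in all 3 mutants, with median log2 ratios of 0.69, 0.29 and 0.75 in comr, can and mip40, but with median-of-ratios scaling the medians were -0.53, -0.87 and -0.34. All but 1 of these genes had under 100 FPKM in wt, where the limit favours high ratios. Of the 4 above wt, CdsA, Inx5 and CG12034 share an exon with another gene, so their values are uncertain, and Vha16-3 shares none. Vha16-3, a proteolipid subunit of the vacuolar proton pump, had 72 and 59.4 FPKM in wt, 97.6 and 91.2 in comr, 227 and 187 in can and 95.0 and 75.7 in mip40, above wt as FPKM but not in all 3 with median-of-ratios scaling. Its can libraries stood above all others. Pkd2, a cation channel needed for sperm to move into storage, had 72 and 72.5 in wt, 138 and 129 in comr, 68.2 and 76.0 in can and 134 and 133 in mip40, level with wt in can only.

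CG31740 (2L:18008953-18009694) was the highest in wt, with 7992 and 7305 FPKM, and had 1864 and 2152 in comr, 399 and 458 in can and 1388 and 1487 in mip40. Its can libraries were at the lowest log2 ratio to wt of the 231 genes in can, -4.16. Its exons overlap elfless on the opposite strand, which was listed at 0 FPKM in wt and 113 in comr. The CG31740 values are thus uncertain. CG12861 (2R:14664246-14665356) had 3191 and 2962 in wt, 83.8 and 89.5 in comr, 402 and 427 in can and 722 and 863 in mip40. Its log2 ratio of -5.13 was the lowest of the set in comr. In the set the highest ratio in can was 1.8, that of CG14708. The lowest in mip40 was -3.48, that of janB, which shares an exon with janA. Of the genes in the set, CG12861 differed most between the 3 mutants, followed by CG13245, CG5089 and CG32591. comr was the lowest of the 3 in each of these 4.

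Among the 231, comr was the lowest of the 3 mutants for 84 genes, can for 83 and mip40 for 64. With median-of-ratios scaling the numbers were 100, 86 and 45. The 50 FPKM limit shaped both sets of numbers, and nothing is read from them. Through comr alone it left out 236 genes, through can alone 15 and through mip40 alone 7. Genes below wt in comr and can but above it in mip40 numbered 11 as FPKM, among them Erk7, eIF4E-7 and CG32591. With median-of-ratios scaling all 11 were below wt in all 3 mutants, and the mip40 libraries of eIF4E-7 overlapped those of wt as FPKM. CG32591 had 191 and 218 FPKM in wt, 56.3 and 55.5 in comr, 151 and 144 in can and 299 and 328 in mip40, an order from comr through can to mip40 with no overlap.

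The 6 genes above wt in all 3 mutants under every scaling were Neb-cGP, CG43052, CG9692, ms(3)72Dt, CG12674 and CG7115. CG9692 (3L:16704973-16706428) had 85.0 and 93.8 FPKM in wt, 98.5 and 90.5 in CG9879, 344 and 317 in comr, 253 and 247 in can and 307 and 323 in mip40. CG12674 had 60.0 and 59.5 in wt, 268 and 267 in comr, 218 and 203 in can and 207 and 195 in mip40, and its ratio in comr was the highest of the set at 2.15. Both share no exon with another gene, and every arrest library lay above every wt and CG9879 library. Neb-cGP, CG43052 and CG7115 share exons with other genes, so their values are uncertain.

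Exon sharing also touched the bam values that chose the set. Of the 231, 83 were listed at 0 in both bam libraries, which can be a failed estimate. Of the 226 matched genes, 56 share an exon with another gene on the same or the opposite strand, and 39 of these were among the 83. For 17 genes the partner had 50 FPKM or more in bam, and all 17 were listed at 0 in both bam libraries. They include Ant2, an ADP/ATP carrier whose partner sesB had 500 FPKM in bam and was listed at 0 in wt, where Ant2 had 497, and CG12034 (nSMase), whose partner RpL28 had 3220 in bam. For 5 of the 17 the partner was in turn listed at 0 in wt. The part of exon sharing in the low bam values was not tested. The 170 genes that share no exon gave close values for the arrest mutants, with median log2 ratios of -0.74, -0.66 and -0.59, 115 below and 26 above wt in all 3.

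The 2 genotypes that took no part in the choice were compared with each other. The marker lists above placed CG9879 testes with wt and mip40/bam testes with bam, and both genotypes were quantified with the same annotation. The comparison asks whether the 231 genes part the same 2 states in libraries that did not choose them. Because mip40/bam testes are also mutant for bam and CG9879 testes resembled wt, the choice largely fixes the answer. It is given as a description. All 231 passed the filter on low values, which the choice itself ensures. In limma, 226 of the 231 were higher in CG9879 than in mip40/bam (adjusted p under 0.05), against 34.2% of all 12971 genes, and 3 were lower, against 43.8%. Among 134 genes with an estimate above 0 in mip40/bam, 130 were called higher, with a median log2 difference of 7.66, against -0.13 over all genes tested. Differences on the log2(FPKM + 1) scale understate the change of genes near 0. Of the 97 listed at 0 in both mip40/bam libraries 96 were called. The pattern is not particular to the set: of the 971 other genes tested that were low in bam and high in wt, 966 (99.4%) were called higher too.

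betaTub85D had 1911 and 2035 FPKM in CG9879 and 0.039 and 0.256 in mip40/bam, a log2 difference of 10.75 (SE 0.16, limma, adjusted p = 1.06e-11). CG12861 had 3394 and 3697 and 0 and 0.4, a difference of 11.55 (SE 0.21, limma, adjusted p = 3.54e-11). CG9975 had 707 and 701 and 0.0396 and 0.0747, a difference of 9.38 (SE 0.12, limma, adjusted p = 6.04e-12). For these 3 genes every CG9879 library lay above every mip40/bam library. ms(3)72Dt was 5.43 higher (SE 0.09, limma, adjusted p = 2.97e-11), and CG9692 6.54 higher (SE 0.1, limma, adjusted p = 1.47e-11).

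By role, beside the 226 of all 231, 9 of 11 mitochondrial genes were called higher in CG9879, and every gene of the other 7 roles. Gene lists of the wider pathways are to be read against the 34.2% of all genes called higher and 43.8% called lower. All 45 spermatid differentiation genes were higher, with a median of 9.03, and 12 of 14 testis proteasome paralogs, 23 of 31 mitochondrial and metabolic testis paralogs and 5 of 7 testis translation paralogs. Of 13 meiotic cell cycle genes 5 were higher and 5 lower. The 16 spermatogonial genes tested gave 2 higher and 11 lower, and the 12 somatic hub and cyst genes 3 higher and 9 lower.

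The 5 genes not called higher were snRNA:U6atac:29B, CG13245, Tim10, Neb-cGP and CG34439. The last 3 were called lower, and each shares an exon with another gene. Tim10, a small import chaperone, had 273 and 216 FPKM in CG9879, 431 and 436 in mip40/bam and 0 in both bam libraries. Its difference was -0.84 (SE 0.1, limma, adjusted p = 4.67e-05), but 0.27 in the other direction with median-of-ratios scaling. Neb-cGP had 198 and 139 in CG9879, 885 and 738 in mip40/bam and 0 in bam, a difference of -2.28 (SE 0.17, limma, adjusted p = 8.77e-07).

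CG34439 (ND-MWFE), a subunit of respiratory complex I, had 67.4 and 52.7 FPKM in CG9879 and 364 and 114 in mip40/bam, where the replicates were far apart. Its difference of -1.76 (SE 0.41, limma, adjusted p = 0.00306) was no longer called when only these 4 libraries were fitted (adjusted p = 0.113). CG13245 was listed at 0 in both CG9879 libraries against 837 and 814 in wt, and its position differs between the annotation of these 4 libraries and that of the other 10. snRNA:U6atac:29B was listed at 0 in 1 library each of comr, can and CG9879 and between 1539 and 4551 FPKM in the other libraries of wt, comr, can, mip40 and CG9879. Its gene is short.

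**Figure D4:**
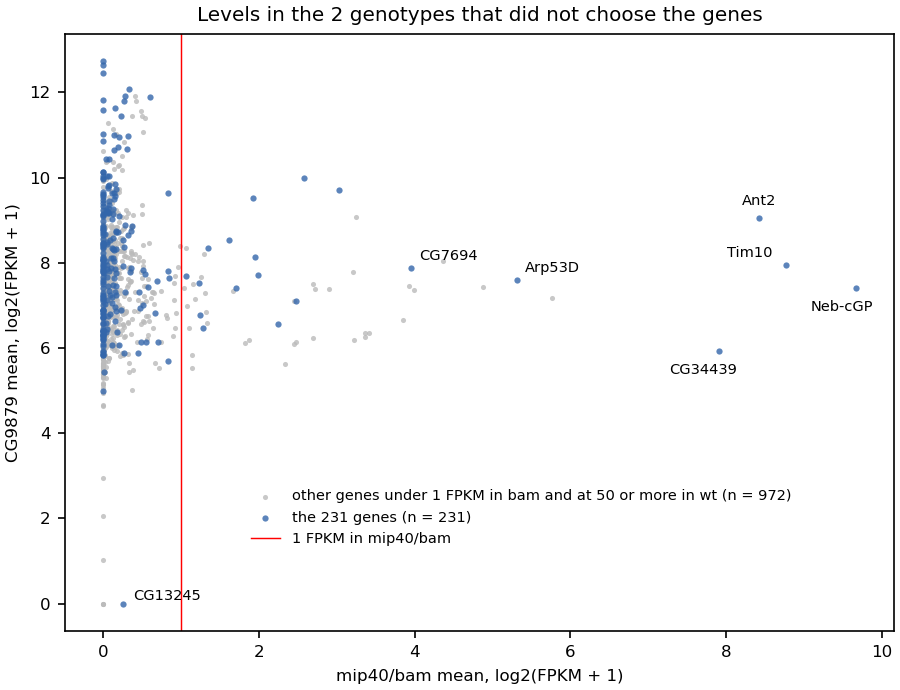
Mean level in CG9879 (vertical) against mean level in mip40/bam (horizontal), both as log2(FPKM + 1), for the 231 genes (blue) and the 972 other genes under 1 FPKM in bam and at 50 or more in wt (grey). Most blue points lie left of the red line at 1 FPKM in mip40/bam (211 of 231) and above 50 FPKM in CG9879 (228 of 231), among the grey points, with Ant2, Tim10, Neb-cGP, CG34439, Arp53D and CG7694 to the right.

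In mip40/bam 211 of the 231 (91.3%) were under 1 FPKM, as in bam. The share was 92.7% over all 5735 genes under 1 FPKM in bam, and 96.3% over the 972 others. Of the 20 genes at 1 FPKM or more, 6 reached 10 FPKM. Among these 6, Ant2, Tim10, CG7694, Neb-cGP and CG34439 share exons and were listed at 0 in both bam libraries, under another annotation. Ant2 had 340.5 and 342 FPKM in mip40/bam, 562 and 500.2 in CG9879 and 512 and 482 in wt. Arp53D was the exception described above.

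Of the 20, 13 share no exon with another gene, are matched to the annotation and, apart from Arp53D, stayed under 10 FPKM. CG7046 had 7.44 and 6.92 in mip40/bam and 0.577 and 0 in bam, CG7045 3.03 and 2.58 and 0.861 and 0, and Rpn12R 2.21 and 3.74 and 0.36 and 0.204. For these 3 genes both mip40/bam libraries stood above both bam libraries and far below wt. Taking genes at 1 FPKM or more in mip40/bam from a set under 1 in bam nearly ensures the former. The bam and mip40/bam libraries were also quantified with different annotations. Between mip40/bam and bam, limma called 26 of the 231 higher and 11 lower, 37 in all, against 16.4%, 19.7% and 36.1% of all genes. Without bam replicate 2 the 37 became 76. The choice used bam, and nothing is read from this count.

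CG9879 testes were close to wt for these genes. At 50 FPKM or more were 228 (98.7%), against 95.1% of all 2701 genes at that level in wt, and 226 were within 1.5-fold of wt. The median log2 ratio to wt was 0.02. limma called 6 higher and 12 lower, 18 in all, against 4.26%, 7.24% and 11.5% of all genes, and again wt took part in the choice. The 18 became 8 to 11 without 1 library (11 without CG9879 replicate 1 or replicate 2, 8 without wt replicate 1 and 10 without wt replicate 2) and 5 when only these groups were fitted. The 5 outside 1.5-fold were snRNA:U6atac:29B, CG13245, CG34178, CG42810 and CG7115, all lower. The CG9879 and wt libraries were quantified with different annotations, and the part of this in the differences was not tested. CG13245, CG34178 and CG7115 also share exons with other genes, so their values are uncertain. CG42810 had 147 and 154 FPKM in CG9879 and 309.9 and 260.1 in wt. CG12902, which also shares an exon with another gene, had the highest ratio, with 512 and 575 against 419.8 and 343.

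A larger share of the genes than of the comparison sets lay on the X chromosome. On the X chromosome lay 56 (24.2%), against 9.88% of the 972 other genes low in bam and high in wt and 15.8% of 13851 compared genes, CR and snoRNA symbols left out. The X-linked share was 7.29% among the 439 genes under 50 FPKM in all 3 mutants, 9.09% among 275 at 50 or more in 1 mutant, 15.1% among 258 in 2 and 24.2% in all 3. These are descriptions with no test, and the 4 classes also differ in their median wt level, which was 106, 168, 277 and 239 FPKM. Of the 170 genes that share no exon, 27.6% were X-linked. Arms 2L, 2R, 3L and 3R held 47, 43, 45 and 40 genes, and chromosomes 4 and Y held none.

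**Figure D5:**
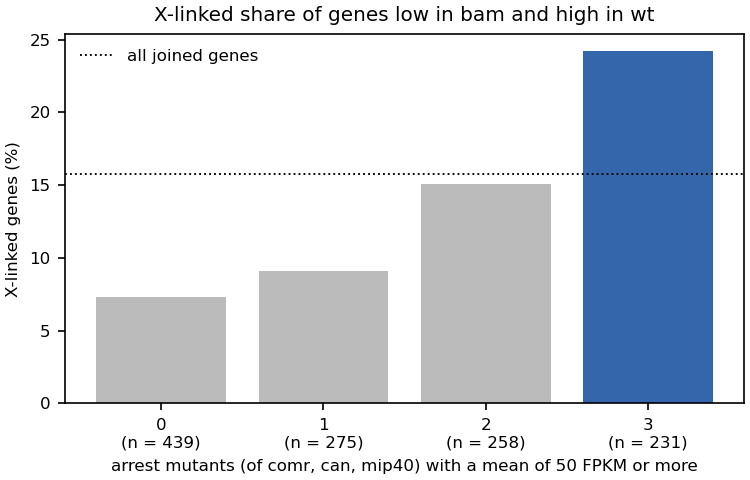
Share of X-linked genes (bars, percent, from 0) among genes under 1 FPKM in bam and at 50 FPKM or more in wt, by the number of arrest mutants in which the mean was also at 50 FPKM or more. The bars are 7.29%, 9.09%, 15.1% and 24.2% for 0, 1, 2 and 3 mutants, and the dotted line is the 15.8% of all compared genes, CR and snoRNA symbols left out.

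X-linked genes were also nearer to wt. Their median log2 ratios as FPKM were -0.64 in comr, -0.45 in can and -0.23 in mip40, against -0.89, -0.9 and -0.9 for the 175 autosomal genes. The X-linked genes had a median wt level of 182 FPKM, against 277 FPKM for the autosomal genes. CG1394, CG15200 and CG11106, the only run of 3 neighbours in the set, lie on the X chromosome (X:11169811-11202806). CG1394 had 1027 and 1079 FPKM in wt, 946 and 893 in comr, 737 and 675 in can and 1088 and 1183 in mip40. Its levels in the mutants were all within 2-fold of wt as FPKM, and all below wt with median-of-ratios scaling. CG15200 was lower in comr and can, with 468 and 468 and 361 and 433, than in mip40, with 690.0 and 826, and in wt, with 794 and 804.

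A single exon was annotated for 64 of the genes (28.4%), a share between the 42.4% of the 972 others and the 15.7% of all. The median spliced length was 1146 bases, close to 1159 in the others and below 1708 over all genes, and the median coding length was 765 bases against 837 and 1191. Next to another gene of the set lay 33 (14.7%), in 16 runs, among them S-Lap1 with S-Lap2, hale with schuy, Mst84Dd with Mst84Dc, CG7045 with CG7046, Mst98Ca with Mst98Cb and ocn with janB. The larger set of 972 gave 36.1%, a share that grows with the size of a set.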

How the data were processed

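Per the labels' protocols, TruSeq libraries of polyadenylated RNA were run on a MiSeq. TopHat, Cufflinks and Cuffdiff and the builds dm3 and dm6 were used, per the submitters' processing notes, without versions, and use of strand is not stated. The authors deposited FPKM per gene with its interval for each library, normalized by transcript length and library fragments. Their 6 tables of comparisons were not used. No counts were used, so depth was worked out from the intervals.

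The tables used 2 annotations, which were joined by symbol. These were 16745 genes with symbol identifiers in 10 libraries, and 17480 with FBgn identifiers in the 4 libraries of CG9879 and mip40/bam. Of 16166 symbols unique in both, 16084 overlapped in position, 15718 (97.7%) exactly. After 6 with a failed estimate were removed, 16078 remained. Coordinates are those of the files; biotypes, exons, overlaps and current symbols came from BDGP6.54.

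limma 3.58.1 (R 4.3.3) was fitted to log2(FPKM + 1) of all 14 libraries with an intensity trend, for 12971 genes at 1 FPKM or more in at least 2 libraries (7 residual degrees of freedom, prior 1.82). Tests were two-sided, with Benjamini-Hochberg adjustment over all genes and calls under 0.05. The p-values measure the spread between 2 libraries per group. Scripts were tested on simulated data. Python 3.11.15, numpy 2.4.6, pandas 2.3.3 and matplotlib 3.10.9 were used.

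The 231 genes, the roles and the gene lists were chosen with earlier results of these data known. Genes were named by level in wt, extreme ratios per genotype, distance to the limits, evenness across mutants, list membership or known function, from which some were left out for space. Replicate numbers did not pair samples (correlations of deviations in the closing section). A motif search in promoters was not run, because no promoter sequence was used here.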

Additional observations from a re-analysis of the deposited data

How the results depend on the processing

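Of 175 recomputed values for 15 results, 140 kept their direction and size and 35 moved; the causes of the moves were not tested, apart from limits and scalings that move values by construction. The set of 231 genes became 148 with quantile normalization (146 shared), 123 with limits of 100 FPKM, 347 with limits of 25 FPKM, and 148 when an estimate above 0 was required in at least 1 bam library, an alternative chosen after seeing the data; leaving out libraries gave 217 to 253. The 226 genes called higher in CG9879 than in mip40/bam stayed at 226 to 227 under every alternative over all members, and at 169 of the 170 that share no exon. The all-gene count of 4431 ranged from 3758 to 5920, and from 4196 to 4384 when 1 library was left out.

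In CG9879 against wt the 18 calls became 9 and 28 with pseudocounts of 0.1 and 5, 8 with quantile normalization, 5 when only these groups were fitted, and 8 to 11 without 1 library (11 without CG9879 replicate 1 or replicate 2, 8 without wt replicate 1, 10 without wt replicate 2). In mip40/bam against bam the 37 calls became 59 and 17 with pseudocounts of 0.1 and 5, and 35 to 76 without 1 library, with 76 without bam replicate 2. Calls higher than wt fell to 6 in comr, 4 in can and 5 in mip40 with median-of-ratios scaling, and to 22 in can with a pseudocount of 0.1. Calls lower than wt fell to 96 in can and 86 in mip40 with a pseudocount of 0.1, and to 91 in mip40 with quantile normalization. Without 1 library, calls higher than wt were 33 to 39 in comr, 28 to 31 in can and 34 to 39 in mip40, and calls lower were 141 to 154, 140 to 148 and 133 to 147. Median log2 ratios to wt of comr, can, mip40 and CG9879 were -2.04, -1.86, -1.74 and 0.04 under median-of-ratios scaling, -0.61, -0.61, -0.34 and 0.0 under quantile normalization, and -0.73, -0.52, -0.33 and 0.0 with equal summed FPKM.

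Among single genes, the difference between CG9879 and mip40/bam turned for Tim10 to 0.27 with median-of-ratios scaling (adjusted p = 0.0277 in limma), became -0.47 and 0.0 for CG13245 without mip40/bam replicate 1 and replicate 2, and became 0.0 for snRNA:U6atac:29B without CG9879 replicate 1. With the replicate block the counts were 226 for CG9879 against mip40/bam, 16 for CG9879 against wt and 37 for mip40/bam against bam, and no call count moved by over 1.5 times. The correlation of deviations of same-numbered samples was -0.017, -0.374 and 0 in these comparisons, and -0.41, 0.371 and 0.039 in comr, can and mip40 against wt, so the numbers were not taken as pairs. With the numbers crossed, chosen after seeing the data, 11 calls were made in CG9879 against wt, and 39 higher and 156 lower in comr against wt. At 5.6 and 5.1 fragments per FPKM for a gene of median length in the bam libraries, levels under 1 FPKM rest on a handful of fragments.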
